A study of Bos taurus with 96 samples.

Results

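The transcription factors that turn a precursor cell into a fat cell, and those that switch on fat synthesis in it, were followed across 5 fat depots and 1 muscle of beef cattle. The genes were PPARG, CEBPA, CEBPB, CEBPD, ZNF423 and EBF1, which act in adipocyte formation, and SREBF1, MLXIPL, THRSP and RXRA, which act in lipogenesis or as a partner of PPARG. They were chosen by name, and their probes were found by the bovine RefSeq accession of the probe or by the gene name that the study's probe tables give. Of these 10 genes, 8 had at least 1 probe among the 34227 probes tested, with 19 such probes in all. CEBPB had probes only among those that are not controls but lie outside the tested probes, and its values come from a fit over all 43653 probes that are not controls. No probe was matched to RXRA.

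Total RNA was hybridised to the one colour Agilent bovine array, 1 sample per array, in 96 samples from steers of 3 breeds (Hereford, Angus and Wagyu x Angus). Subcutaneous fat over the rump (SC), omental fat (Omen), kidney fat (Kid), fat between muscles (Inter) and intramuscular fat dissected out of the longissimus muscle (IMF) were each measured on 12 arrays, 4 per breed, all from steers that were on pasture after weaning. The longissimus dorsi muscle with its fat in place (LD) was measured on 24 arrays from steers on pasture and on 12 from steers given a supplement after weaning. All 96 samples are labelled with 259 days of feedlot, and the fat steers were slaughtered at just over 2 years of age. Part of the LD samples, including the supplement samples, came from steers slaughtered at an earlier time, which the labels do not mark, so diet and time of slaughter cannot be told apart. The 60 fat arrays come from fewer steers than arrays, and the labels do not link arrays to steers, so that p-values measure the spread between arrays and those between breeds in fat are too small.

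A level is given as log2 of the processed signal of a probe less the 75th percentile of that array, so that 0 is the 75th percentile and a step of 1 is a doubling. Levels of different probes were not compared with each other. Between 66.3% and 88.7% of probes were well above background on an array, none was saturated, and 2 arrays of one group correlated at 0.927 to 0.992 over the tested probes. The arrays were scanned on 3 days. The 12 IMF arrays were all read on the third, 11 of the 12 SC arrays on the first, all 12 Inter arrays on the second, and 10 of the 12 Omen arrays on the third.

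CEBPB and CEBPD are the early factors of adipocyte formation: hormones induce them in precursor cells, and they switch on PPARG and CEBPA. PPARG, a nuclear receptor that binds DNA together with RXRA, and CEBPA then keep each other on and drive most genes of the mature fat cell. ZNF423 and EBF1 act before or beside them in committing precursors. SREBF1 responds to insulin and MLXIPL, also called ChREBP, to glucose metabolites, and both induce enzymes of fatty acid synthesis, while THRSP is a nuclear protein induced along with those enzymes. In ruminants most fatty acids are made in adipose tissue itself, from acetate.

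PPARG, CEBPA, THRSP and MLXIPL were lower in IMF than in SC by 2.52 to 3.56 times, CEBPD and EBF1 by 1.74 and 1.75 times and ZNF423 by 1.3 times, whereas CEBPB was higher in IMF. In all, 7 of the 8 tested genes passed the test between IMF and SC and all 7 were lower in IMF. Of all probes tested 64.2% passed in this comparison, 33% lower and 31.1% higher in IMF, so passing was common, and the direction that the 7 genes share is the count to read. Of the 19 probes 17 passed, all lower in IMF. In samples of whole tissue, fewer cells of a type and less RNA per cell cannot be told apart.

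PPARG was at 1.80 on the lowest IMF array, 2.79 at the median and 3.75 on the highest, and at 3.83, 4.28 and 4.51 in SC. All 12 IMF arrays lay below every SC array. The difference was -1.35 (SE 0.17, adjusted p = 1.55e-07, limma with Benjamini-Hochberg adjustment over all probes tested). CEBPA was at 3.74, 4.95 and 6.39 in IMF and at 6.51, 6.93 and 7.13 in SC, again with no overlap, and differed by -1.71 (SE 0.22, adjusted p = 2.77e-07). Groups without overlap were found for 14.9% of all probes tested.

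THRSP had the widest range of the 9 genes within IMF. Its IMF arrays ran from 0.94 through a median of 3.77 to 5.70, against 4.86, 5.68 and 6.35 in SC, and 9 of 12 IMF arrays lay below every SC array. The difference was -1.83 (SE 0.40, adjusted p = 0.000288), and the 4 probes of THRSP gave -1.83 to -2.03. MLXIPL was at -2.09, -1.6 and -0.73 in IMF and at -0.86, -0.25 and 0.66 in SC, with 11 of 12 IMF arrays below every SC array and a difference of -1.33 (SE 0.18, adjusted p = 6.2e-07). SREBF1, the other regulator of lipogenic enzymes, was at -0.17 ± 0.23 (SD, n = 12) in IMF and -0.07 ± 0.35 (SD, n = 12) in SC. Its 2 groups overlapped fully, and the difference of -0.10 had a 95% interval from -0.33 to 0.14 (adjusted p = 0.484).

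The early factors moved in opposite directions. CEBPD was at 3.25, 3.96 and 4.48 in IMF and at 4.39, 4.74 and 5.14 in SC, with a difference of -0.80 (SE 0.14, adjusted p = 3.14e-05). Of 6 genes that respond early to handling of tissue 4 were also lower in IMF than in SC and 1 higher, with a median difference of -0.76, and their part in the CEBPD difference was not tested. CEBPB was at 1.3, 2.64 and 3.63 in IMF and at 0.79, 1.18 and 1.38 in SC, so that 11 of 12 IMF arrays lay above every SC array. The difference was 1.49 (SE 0.20, adjusted p = 6.14e-07) in the fit over all probes that are not controls, of which 60% passed. CEBPB also had its highest levels in LD, which is described with the muscle. The commitment factors EBF1 and ZNF423 were lower in IMF by 0.81 (SE 0.17, adjusted p = 0.000255) and 0.38 (SE 0.11, adjusted p = 0.00527). The other 3 tested EBF1 probes passed with smaller differences, -0.39 to -0.53, and the other 2 tested ZNF423 probes gave -0.36 and -0.33. EBF1 ranged from 0.96 to 2.80 in IMF and from 2.46 to 3.00 in SC, and ZNF423 from 0.72 to 1.61 and from 1.15 to 2.10.

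**Figure D1:**
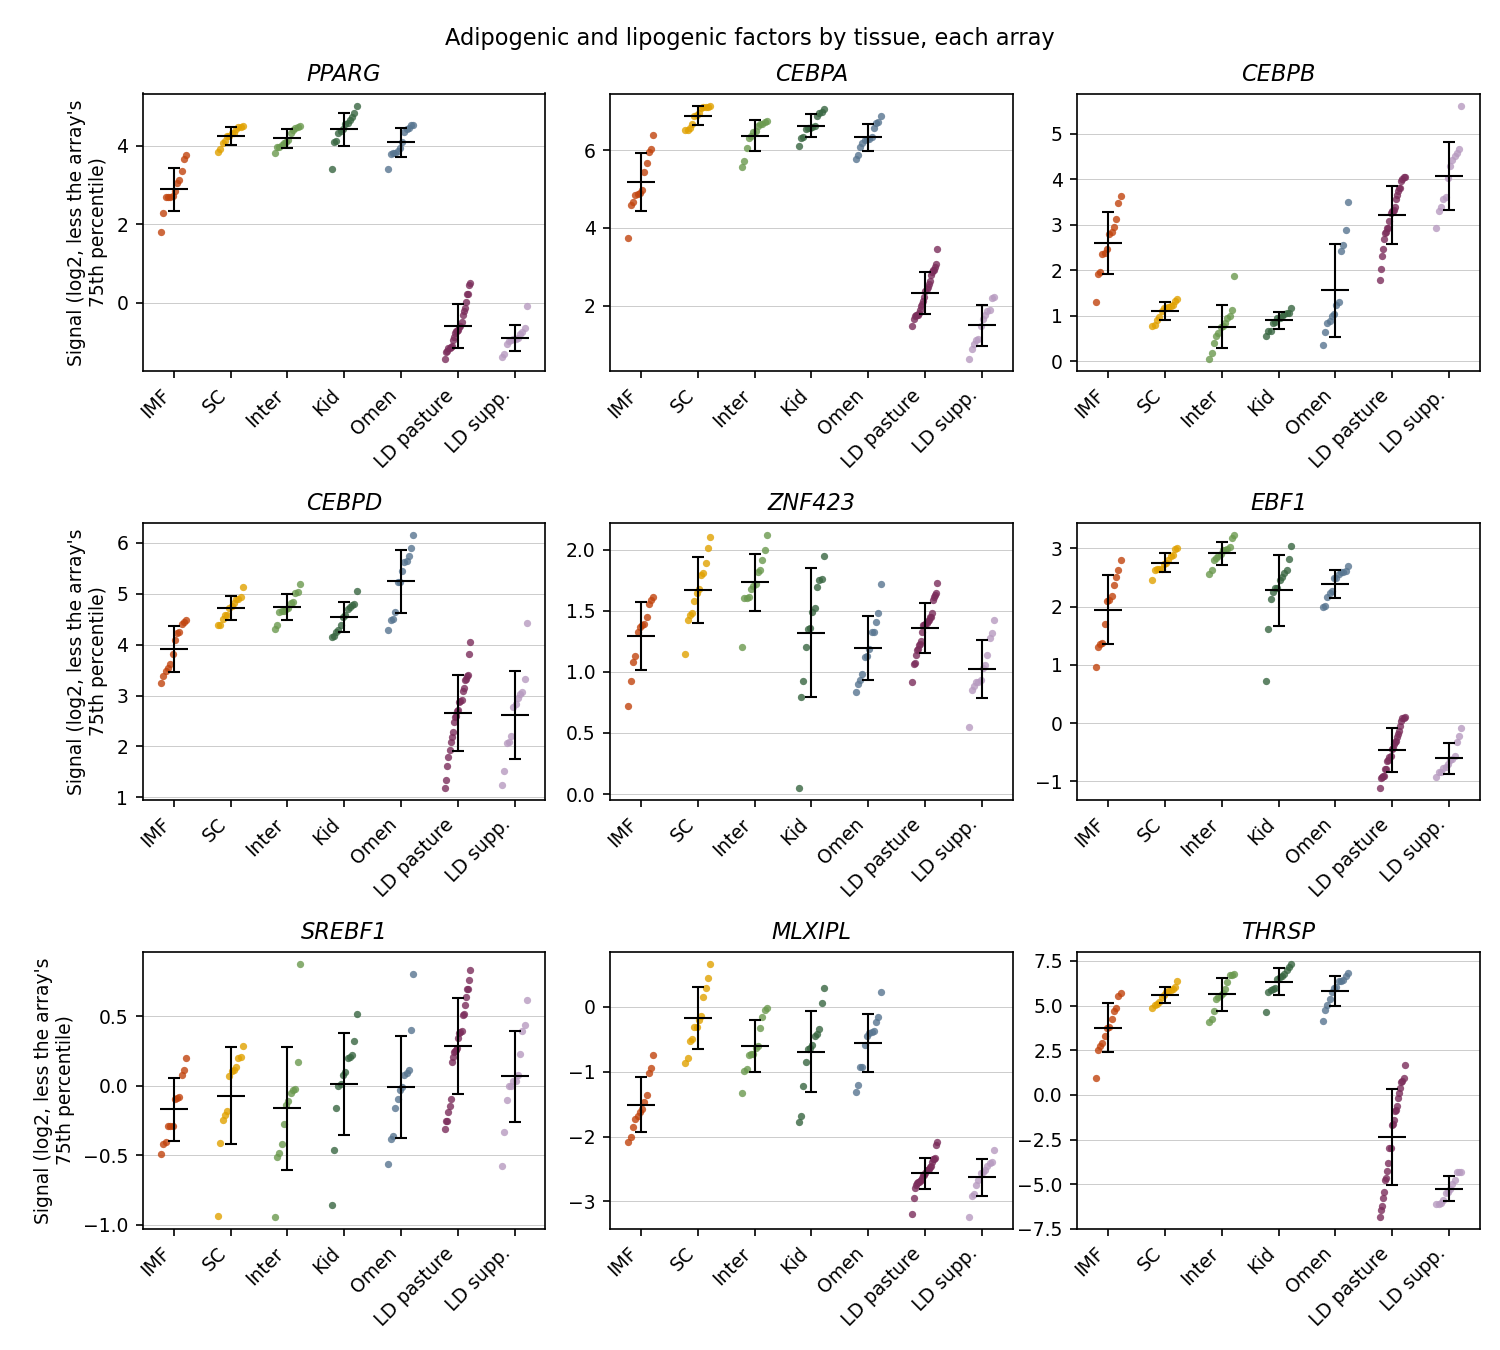
Level of 9 genes on every array, by tissue, as log2 signal less the 75th percentile of the array, with a panel and an axis of its own for each gene. Horizontal bars are means and whiskers 1 SD. The 12 IMF points of PPARG and CEBPA lie wholly between those of SC and those of LD, and in the CEBPB panel the 2 LD groups lie at the top.

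Leaving out any 1 of the 24 arrays kept all 7 calls. Scan day bears on them directly, because IMF and SC share a day through 1 SC array alone. With scan day as a block the comparison rests on that array, none of the 7 genes passed, and the values were -0.94 for PPARG, -1.40 for CEBPA, -2.11 for THRSP and 0.15 for ZNF423, which changed sign. With scan day fitted over all 96 arrays, where LD links the days, all 7 passed and were lower. Values were -1.71 for PPARG, -2.36 for CEBPA and -4.04 for THRSP. That fit had no term for breed, and in LD scan day goes with breed. LD arrays of the third day are all of Angus or Wagyu x Angus, and those of the first of Hereford or Wagyu x Angus. THRSP in LD on pasture averaged -4.42 on the first day and -0.36 on the third, and the fit takes such gaps as scan day. The same limit holds for each use of this fit below.

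A comparison that shares a scan day is IMF against Omen, of which 12 and 10 arrays were read on the third day. IMF was lower than Omen for 6 of 8 genes and higher for none, where 56.2% of all probes passed and 28.5% were lower. PPARG differed by -1.19, CEBPA by -1.15, CEBPD by -1.33, MLXIPL by -0.95, THRSP by -2.06 and EBF1 by -0.44 (adjusted p between 7.44e-06 and 0.0384). With scan day as a block all 6 passed, at -1.29 for PPARG (adjusted p = 4.07e-06), -1.25 for CEBPA, -1.40 for CEBPD, -0.92 for MLXIPL, -2.0 for THRSP and -0.48 for EBF1 (adjusted p = 0.0375). With slide as a random block EBF1 no longer passed (adjusted p = 0.0791), and its other 3 tested probes did not pass between IMF and Omen, at -0.30, -0.18 and -0.14 (adjusted p between 0.0759 and 0.442). ZNF423 differed by 0.10 between IMF and Omen, with a 95% interval from -0.12 to 0.32. CEBPB was higher in IMF than in Omen by 1.04 (SE 0.34, adjusted p = 0.0128) and by 0.83 with scan day as a block (adjusted p = 0.0422), while its second probe gave -0.12 (adjusted p = 0.463). Genes that respond early to handling of tissue were lower along with CEBPD, 5 of 6 between IMF and Omen with a median of -1.20. Of 6 adipocyte markers 5 were lower in IMF than in Omen and 1 higher. All 5 macrophage and all 4 endothelial markers were lower. All 4 smooth muscle and all 11 skeletal muscle markers were higher, where 27.8% of all probes were. The part of any of these markers in the differences from Omen was not tested.

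Against Inter, IMF was lower for 7 of 8 genes (62.7% of probes passed and 30% were lower), and against Kid for 5 of 8 (55.9% and 27.4%). All IMF arrays were read on the third scan day and all Inter arrays on the second, so that depot and scan day cannot be told apart there. IMF and Kid share a day through 1 Kid array, and with scan day as a block none of the 5 genes passed between them (adjusted p between 0.101 and 0.24). Their differences were of similar size or larger in that fit, at -1.44 for PPARG, -1.45 for CEBPA, -2.89 for THRSP, -0.83 for CEBPD and -1.08 for MLXIPL, against -1.53, -1.46, -2.59, -0.62 and -0.82 without the block. Over the 5 depots together 7 of 8 genes differed (87.2% of probes), all but SREBF1 (adjusted p = 0.619). The difference of SREBF1 between IMF and the other 4 depots was between -0.19 and -0.01. EBF1 and ZNF423 were lower in IMF than in Inter by 0.97 and 0.44, and for Kid the differences of -0.33 and -0.03 did not pass.

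Skeletal muscle markers were high in IMF, 11 of 11 above SC, with a median difference of 10.49. Their summed level was 10.19 to 11.74 in IMF, 0.87 to 1.66 in SC and 12.12 to 12.63 in LD on pasture. Over 2748 probes that were more than 4-fold higher in LD than in SC, the muscle share of the IMF signal was 27.8% ± 15.1 (SD, n = 12), from 8.47% to 47.7%, and its mean in the other depots was -0.16% to 0.68%. Of 6 adipocyte markers 5 were lower in IMF than in SC, with a summed level of 6.69 to 8.36 in IMF and 8.42 to 9.03 in SC. All 9 stromal and all 5 macrophage markers were lower and all 4 smooth muscle markers higher.

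The level that SC and LD RNA would give when mixed at each array's own muscle share was computed for each gene. PPARG in IMF lay below the mixed level on 12 of 12 arrays, by 0.89 ± 0.38 (SD, n = 12). CEBPA lay below it on 12 of 12 arrays by 1.25 ± 0.56 and MLXIPL on 12 of 12 by 1.02 ± 0.34. CEBPD and ZNF423 were also below it on 12 of 12 arrays, EBF1 and SREBF1 on 11 and THRSP on 10. CEBPB was below its mixed level on 4 of 12 arrays, with a mean of 0.52 above it and an SD of 0.87. The SC level of the mixture rests on 11 arrays of the first scan day and 1 of the third, and all IMF arrays are of the third. The share of all probes below their mixed level was not computed, and why these genes lie below it was not tested.

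The IMF arrays fall into 7 with a muscle share of 8.47% to 26.4% and 5 with 41.1% to 47.7%. This split was made after the shares were seen. The correlation with the share had been planned over all 12 IMF arrays. PPARG averaged 3.2 in the first set and 2.46 in the second, CEBPA 5.58 and 4.61, and EBF1 2.38 and 1.34. Within the first set of 7 arrays EBF1 had a Pearson's r of -0.90 with the muscle share (exact permutation p = 0.00972, adjusted over 9 genes p = 0.0875) and a Spearman's rho of -0.82 (exact permutation p = 0.0341, adjusted p = 0.264). Without the 2 arrays farthest from the median share r was -0.97. PPARG and CEBPA had r of -0.69 and -0.71 (exact permutation p = 0.0903 and 0.0802). None of the 9 relations passed after adjustment.

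**Figure D2:**
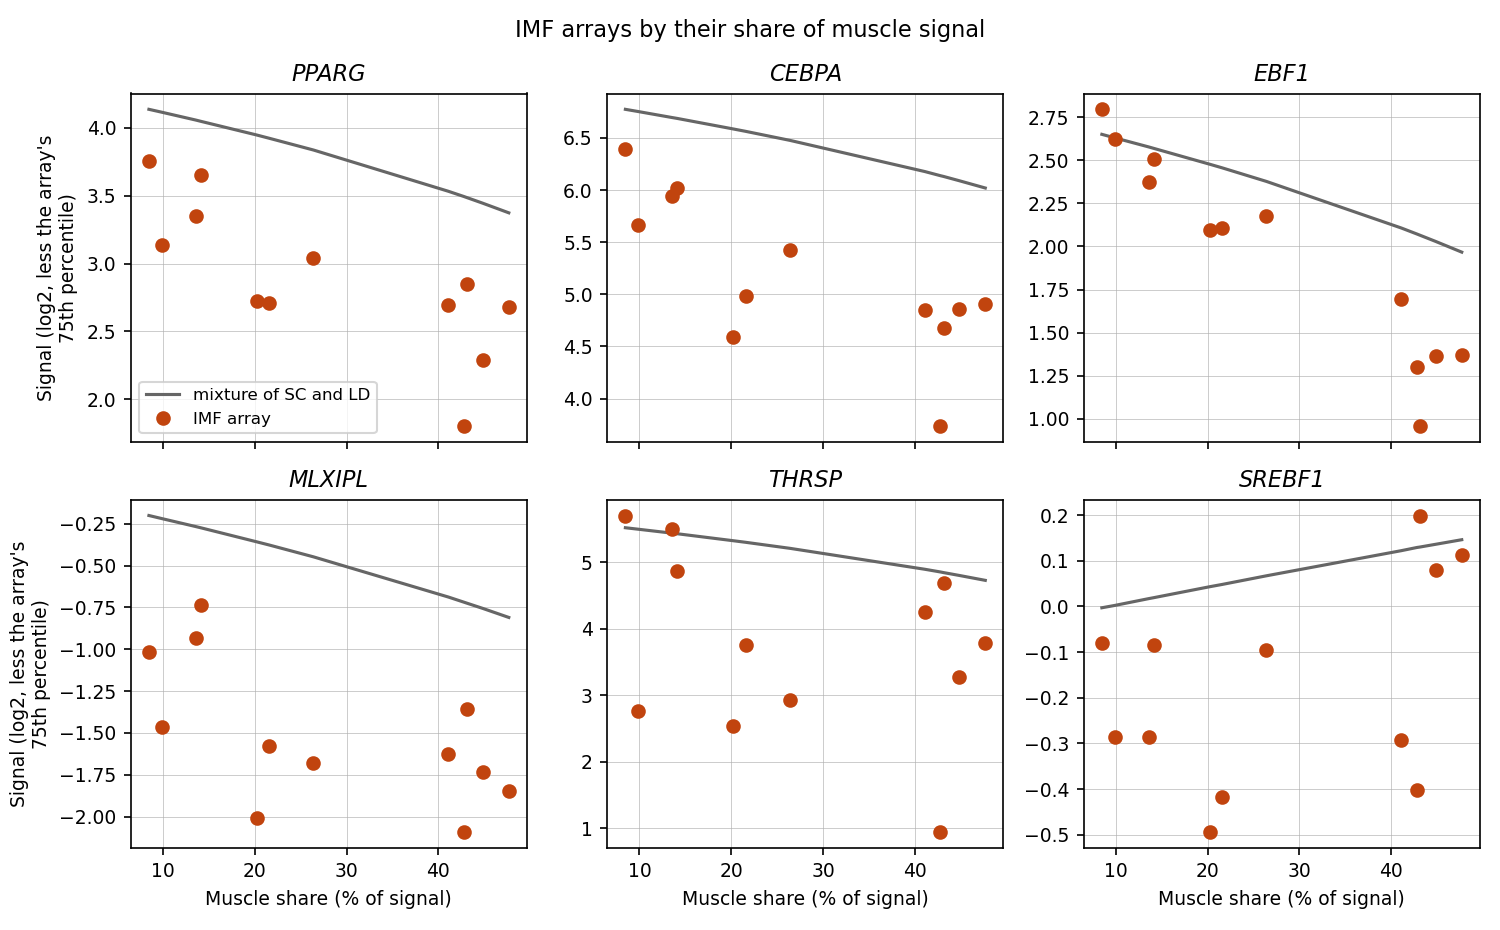
Level of 6 genes on the 12 IMF arrays (points) against the share of the array's signal that comes from muscle, in percent. The line gives the level of a mixture of SC and LD on pasture at each share. For PPARG, CEBPA and MLXIPL all 12 points lie below the line, while THRSP has 2 points above it and EBF1 and SREBF1 have 1 each.

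The 4 depots other than IMF differed less in these genes. All comparisons with SC use the same 12 SC arrays. Of 8 genes, 2 passed between Inter and SC (48.8% of probes), 2 between Kid and SC (41.7%) and 4 between Omen and SC (45.8%), shares below or close to those of all probes. PPARG passed in none of them, with differences of -0.06, 0.18 and -0.16 and 95% intervals within -0.40 and 0.44.

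CEBPA had its highest mean in SC. Its level was 6.88 ± 0.25 in SC, 6.63 ± 0.29 in Kid, 6.37 ± 0.39 in Inter and 6.32 ± 0.34 in Omen (SD, n = 12 each). It was lower than SC in Inter by 0.51 (adjusted p = 0.00263) and in Omen by 0.55 (adjusted p = 0.000563), and Kid did not differ past the threshold (-0.25, adjusted p = 0.0746). For Inter the second tested CEBPA probe gave -0.26 and did not pass (adjusted p = 0.407), and under quantile normalization the CEBPA difference was -0.25 (adjusted p = 0.118). For Omen the CEBPA difference was -0.14 with scan day as a block (adjusted p = 0.818), a fit that rests on 1 SC array, and -1.16 with scan day fitted over all 96 arrays (adjusted p = 2.13e-05). MLXIPL was lower in Inter than in SC by 0.43 (adjusted p = 0.0437), a call that 7 alternatives lost.

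THRSP had its highest mean in Kid. Its arrays were at 4.65, 6.55 and 7.32 there against 4.86, 5.68 and 6.35 in SC, so that 7 of 12 Kid arrays lay above every SC array. The difference was 0.76 (SE 0.24, adjusted p = 0.0143), and the other 3 probes gave 1.14 to 1.22. Within the first scan day, which holds 5 Kid and 11 SC arrays, it was 0.55, and with scan day as a block it no longer passed (0.58, adjusted p = 0.147). It did not pass with scan day fitted over all 96 arrays either (0.23, adjusted p = 0.797), nor with the spread of all 60 fat arrays (adjusted p = 0.0859). The call was also lost without arrays of over 1% muscle share (0.58, adjusted p = 0.0757).

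CEBPD had its highest mean in Omen, at 4.28, 5.34 and 6.15, and was 0.52 higher there than in SC (SE 0.19, adjusted p = 0.0233) and 0.70 higher than in Kid (adjusted p = 0.0191). Kid and Omen share 2 scan days, on which Kid differed from Omen by -0.35 (6 and 2 arrays) and -0.57 (1 and 10 arrays), and the call was lost with scan day as a block (adjusted p = 0.441) and with slide as a random block (adjusted p = 0.0608). Genes that respond early to handling of tissue moved with it: 4 of 6 were higher in Omen than in SC, with a median difference of 0.89, and their part in the CEBPD difference was not tested. The call of CEBPD between Omen and SC was lost with slide as a random block (0.52, adjusted p = 0.0637) and with scan day as a block (0.38, adjusted p = 0.719). With scan day fitted over all 96 arrays CEBPD was 0.11 lower in Omen than in SC (adjusted p = 0.801), so its direction turned. CEBPB was the most variable in Omen, from 0.35 through 1.14 to 3.5, and did not differ from SC past the threshold (0.45, 95% interval -0.12 to 1.01).

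The commitment factors had lower means in the abdominal depots. So did the summed level of 9 stromal and progenitor markers, with a median of 8.74 in SC, 8.21 in Inter, 7.85 in Omen and 6.97 in Kid. The part of those markers in the differences of EBF1 and ZNF423 was not tested. EBF1 was at 2.91 ± 0.20 in Inter, 2.75 ± 0.16 in SC, 2.39 ± 0.24 in Omen and 2.28 ± 0.61 in Kid (SD, n = 12 each). Kid and Omen were lower than SC by 0.47 (adjusted p = 0.0333) and 0.36 (adjusted p = 0.00159), and lower than Inter by 0.63 (adjusted p = 0.021) and 0.52. With slide as a random block the call between Kid and SC was lost (-0.45, adjusted p = 0.0947). Of the other 3 EBF1 probes 1 passed between Kid and SC, at -0.48, with -0.32 and -0.34 for the rest (adjusted p = 0.186 and 0.0989), and 2 passed between Omen and SC, with -0.09 for the remaining one (adjusted p = 0.495). Of the 8 genes EBF1 was the one that passed between Inter and Kid (15.4% of probes), EBF1 and ZNF423 passed between Inter and Omen (13.6%), and CEBPD between Kid and Omen (12.1%). EBF1 was 0.16 higher in Inter than in SC by its brightest probe, which did not pass, and 2 of its other 3 probes passed, at 0.66 and 0.32. ZNF423 was lower in Omen than in SC by 0.47 (adjusted p = 0.00107) and lower than in Inter by 0.54, and 1 Kid array stood at 0.05, the lowest of the 96. The other 2 tested ZNF423 probes gave -0.15 and -0.17 for Omen against SC and did not pass. With scan day as a block, which for Omen and SC rests on 1 SC array, neither gene passed between them and ZNF423 turned to 0.10. With scan day fitted over all 96 arrays both passed and were lower in Omen, EBF1 by 0.67 (adjusted p = 0.00291) and ZNF423 by 0.47 (adjusted p = 0.0106). With the spread of all 60 fat arrays EBF1 did not pass between Omen and SC (adjusted p = 0.0729). Between Inter and Kid the EBF1 call was lost with slide as a random block (adjusted p = 0.112) and with scan day as a block (adjusted p = 0.162), and between Inter and Omen with scan day fitted over all 96 arrays (0.43, adjusted p = 0.081). Inter and SC share no scan day, so depot and scan day cannot be told apart there.

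**Figure D3:**
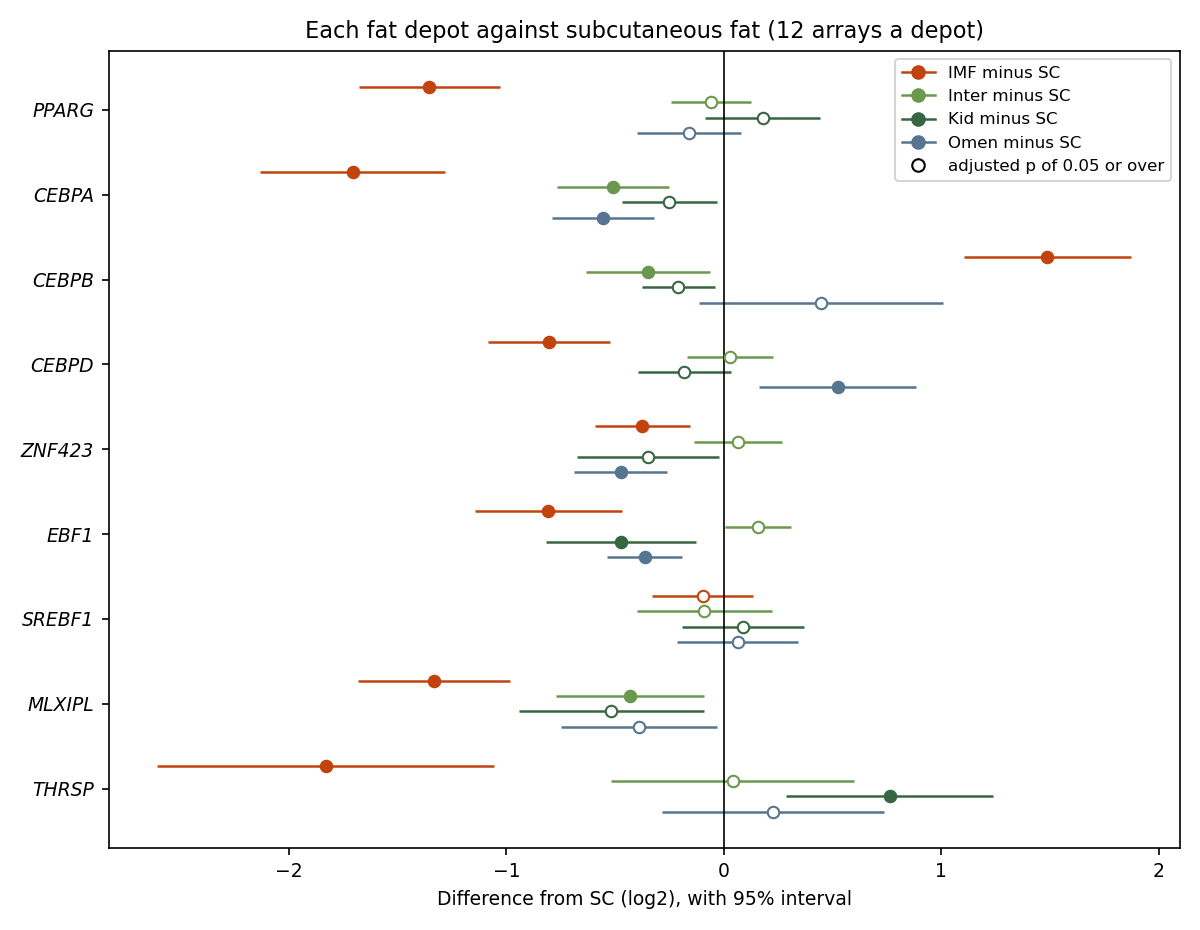
Difference of each fat depot from SC in log2, with its 95% interval, for 9 genes over 12 arrays a depot. Filled points passed an adjusted p of 0.05 and open points did not. IMF lies farthest to the left for 6 of the 7 genes lower there and to the right for CEBPB, while for ZNF423 Omen lies farther left (-0.47) than IMF (-0.38). Of the other 3 depots Kid lies farthest out, at 0.76 for THRSP.

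None of these genes passed between breeds in fat. Over the 60 fat arrays the test found 0 of 8 genes and 3.19% of all probes, and the lowest adjusted p among the 8 was that of THRSP, 0.124. For the dependence of the depot difference on breed, 0 of 8 genes and 0 of 34227 probes passed, while 2532 probes had an unadjusted p under 0.05.

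Most of these genes separated fat from muscle. SC was higher than LD on pasture for 7 of 8 genes and lower for SREBF1, where 82.9% of all probes passed and 40.3% were higher in SC. PPARG was 28.4 times higher in SC than in LD, CEBPA 23.6 times, EBF1 9.25 times, MLXIPL 5.27 times and CEBPD 4.19 times, each with no overlap between the 12 SC and 24 LD arrays, as was so for 39.1% of all probes. THRSP differed by 7.95 in log2 on its brightest probe, which was well above background on 19 of 24 LD arrays on pasture, and by 6.46 on the probe that was above background on all of them. ZNF423 was only 0.31 higher in SC and SREBF1 was 0.36 lower (adjusted p = 0.000766 and 0.00681), and both overlapped between SC and LD. The ZNF423 call was lost with slide as a random block (adjusted p = 0.0661).

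CEBPB ran the other way. Its level was 3.21 ± 0.64 (SD, n = 24) in LD on pasture, with arrays at 1.78, 3.30 and 4.05, and 1.11 ± 0.20 (SD, n = 12) in SC. The difference of SC from LD was -2.10 (SE 0.19, adjusted p = 7.81e-13) with no overlap. IMF lay between them, 0.61 below LD (adjusted p = 0.0147). Against LD, IMF was higher for 6 of 8 genes and lower for SREBF1 (75.3% of probes passed), by 3.48 for PPARG, 2.85 for CEBPA, 6.12 for THRSP and 1.06 for MLXIPL, and ZNF423 did not pass (-0.06, adjusted p = 0.509). THRSP was not well above background on 5 of the 24 LD arrays on pasture, so the size of its differences from LD is uncertain, and a THRSP probe that was well above background on all 24 gave 4.42 between IMF and LD.

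Within LD, THRSP, CEBPA and ZNF423 were lower with supplement than on pasture, and CEBPB was higher in a call that did not hold within scan days. That is 3 of 8 tested genes, all lower, where 11.2% of all probes passed and 5.53% were lower. With slide as a random block none of the 3 passed (adjusted p = 0.275 for CEBPA, 0.365 for THRSP and 0.49 for ZNF423) and 1 of 34227 probes did, 0.00292%. CEBPA was at 0.64, 1.57 and 2.23 with supplement and at 1.47, 2.30 and 3.44 on pasture. All 12 supplement arrays lay below the pasture median, 5 of them below every pasture array, and the difference was -0.83 (SE 0.14, adjusted p = 0.000281, with breed as a covariate).

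THRSP was at -6.13, -5.35 and -4.30 with supplement and at -6.80, -1.64 and 1.68 on pasture, a difference of -2.88 (SE 0.61, adjusted p = 0.00266) that its 4 probes gave as -1.59 to -2.88. The values of Angus were split without overlap. Their 4 supplement values were -5.51, -5.45, -5.25 and -4.77, and their 8 pasture values were -1.60, -1.41, -0.91, -0.64, -0.17, 0.40, 0.72 and 0.93. In Wagyu x Angus the supplement arrays were at -5.85, -5.00, -4.32 and -4.30, the 4 pasture arrays of scan day 1 at -4.77, -4.66, -3.82 and -2.98, and those of scan day 3 at -0.86, 0.08, 0.80 and 1.68. In Hereford 1 of 4 supplement and 3 of 8 pasture arrays had THRSP well above background, so that its levels there are close to the limit of detection. By breed the difference came to -0.69 in Hereford, -3.05 in Wagyu x Angus and -4.91 in Angus. Its dependence on breed did not pass (adjusted p = 0.0705), as for all 8 genes, where 16.2% of probes passed.

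ZNF423 was at 0.55, 0.98 and 1.42 with supplement and at 0.92, 1.39 and 1.73 on pasture, and differed by -0.33 (SE 0.07, adjusted p = 0.00289). Its difference was negative in all 3 breeds, -0.19 in Hereford, -0.36 in Wagyu x Angus and -0.45 in Angus, as was that of CEBPA, at -0.87, -0.97 and -0.64 in the same order. CEBPB was at 2.94, 4.16 and 5.61 with supplement and at 1.78, 3.30 and 4.05 on pasture, 0.86 higher (SE 0.22, adjusted p = 0.0114 over all probes that are not controls, 8.54% of which passed). Among arrays of the same breed and scan day the CEBPB difference was 0.40 (adjusted p = 0.304), made up of -0.51 in Hereford, 0.68 in Angus and 1.03 in Wagyu x Angus. It did not pass with slide as a random block either (adjusted p = 0.424), and the second CEBPB probe differed by 0.19 (adjusted p = 0.427). PPARG differed by -0.30, with a 95% interval from -0.62 to 0.03 (adjusted p = 0.257), and SREBF1 by -0.22 (adjusted p = 0.199). EBF1, MLXIPL and CEBPD differed by -0.15, -0.06 and -0.03 and did not pass.

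The calls of CEBPA, THRSP and ZNF423 held when only arrays of the same breed and scan day were compared, with -0.66 for CEBPA, -2.46 for THRSP and -0.31 for ZNF423 (adjusted p = 0.00166, 0.0139 and 0.0138). The THRSP value comes mostly from Angus, at -5.72 within the scan day, against -0.86 for Hereford and -0.81 for Wagyu x Angus. CEBPA was at -0.78, -0.80 and -0.40 in the same order of breeds, and ZNF423 at -0.33, -0.30 and -0.31. The 12 supplement arrays lie on 3 slides of 1 breed each, and with slide as a random block, where none of the 3 passed, their differences stayed at -0.83, -2.88 and -0.33. CEBPA and ZNF423 also depend on the probe: the second tested CEBPA probe gave 0.01 and the other 2 tested ZNF423 probes gave -0.14 and 0.08.

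Markers of other cells were also counted between the diets in LD. Of 6 adipocyte markers 3 were lower with supplement and none higher, with a median difference of -1.10. PLIN1 was lower by 1.58, ADIPOQ by 1.63 and CIDEC by 2.0. The summed level of all 6 had a median of 7.39 with supplement (6.61 to 7.68) and 7.35 on pasture (6.83 to 7.94). That sum is carried by the brightest markers, and 1 of the 6 was lower in SC than in LD on pasture. Endothelium had 3 of 4 markers higher, stroma 3 of 9 and skeletal muscle 2 of 11, where 5.69% of all probes were higher. With slide as a random block at most 1 of these marker calls can stand, since 1 probe passed in all. Their part in the differences of THRSP, CEBPA and ZNF423 was not tested.

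**Figure D4:**
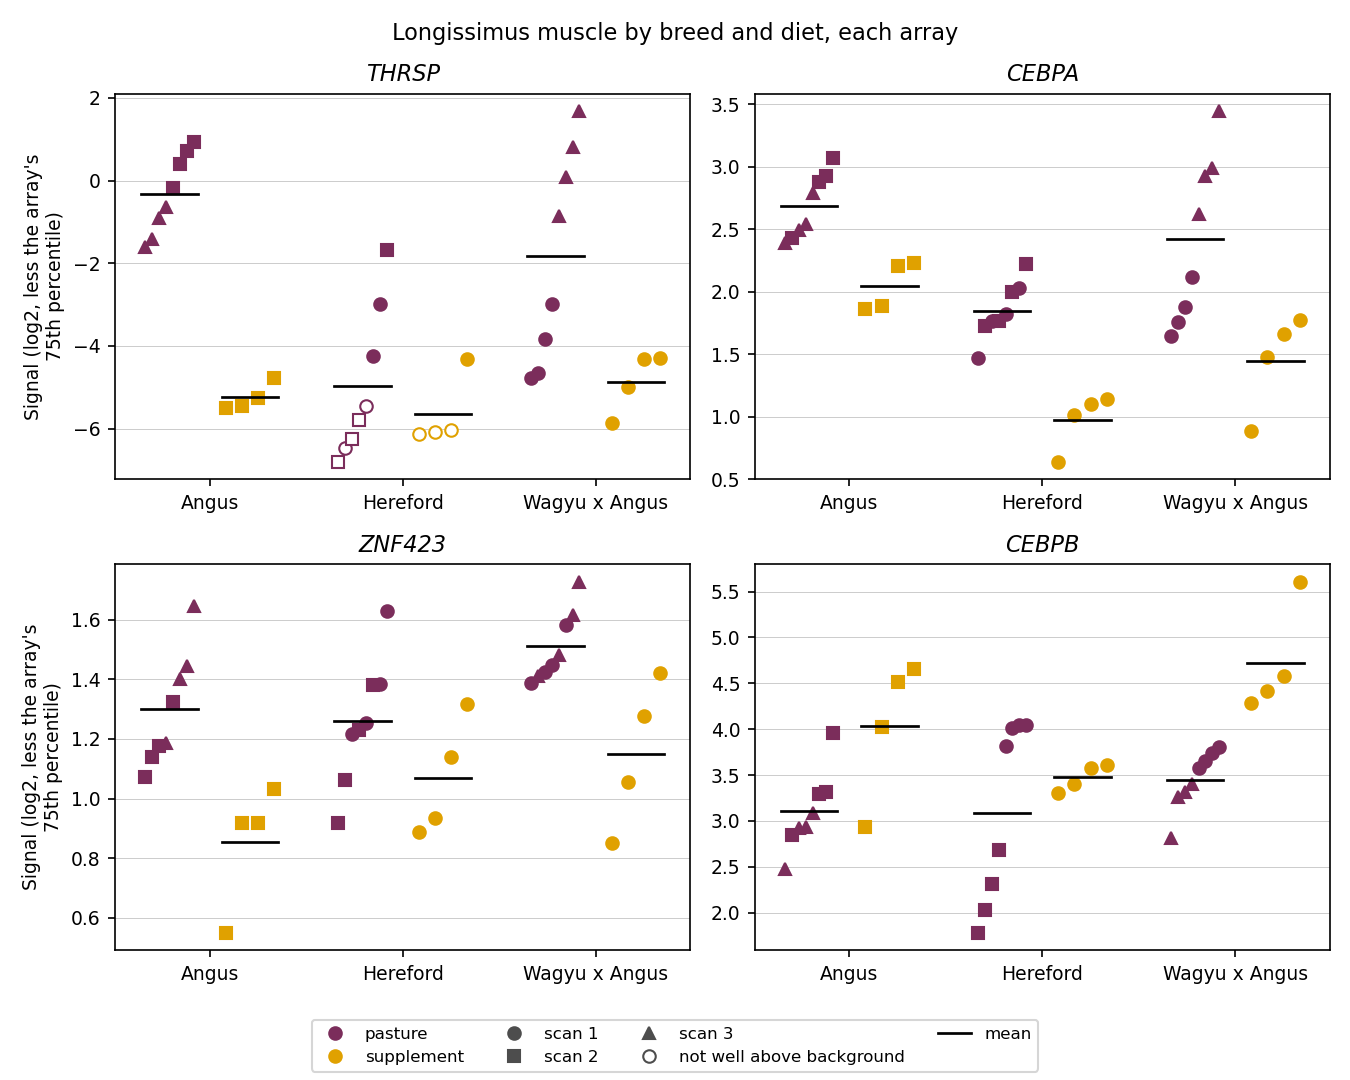
Level of 4 genes on each of the 36 LD arrays, as log2 signal less the 75th percentile of the array, by breed and diet, with the marker shape giving the scan day, open points a signal not well above background and lines the mean. The THRSP arrays of Angus are split by diet without overlap, those of Hereford lie near the limit of detection, and those of Wagyu x Angus on pasture are split by scan day.

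In LD some genes did pass between breeds. Of 8 genes 3 differed between breeds, CEBPA (adjusted p = 0.00111), THRSP (adjusted p = 0.00542) and EBF1 (adjusted p = 0.0202), with 25.2% of all probes. On pasture CEBPA was at 2.69 ± 0.26 in Angus, 2.42 ± 0.66 in Wagyu x Angus and 1.85 ± 0.23 in Hereford (SD, n = 8 each). Hereford was lower than Angus by 0.92 for CEBPA (adjusted p = 0.000778) and by 3.22 for THRSP (adjusted p = 0.00483), where 10.1% of probes passed. Wagyu x Angus was higher than Hereford by 0.54 for CEBPA (adjusted p = 0.0313) and by 2.35 for THRSP (adjusted p = 0.0392), where 7.1% passed. THRSP was well above background on 3 of 8 pasture and 1 of 4 supplement arrays of Hereford, so that the size of both THRSP differences is uncertain. The other 3 THRSP probes passed between Hereford and Angus, at -1.32 to -2.68, and 1 of them between Wagyu x Angus and Hereford, at 1.12, with 1.60 and 1.02 for the others (adjusted p = 0.122 and 0.316). The second tested CEBPA probe passed in neither, at -0.54 and 0.33 (adjusted p = 0.217 and 0.475). Against Angus, where 19.1% passed, Wagyu x Angus was lower for EBF1 by 0.44 (adjusted p = 0.0118) and higher for ZNF423 by 0.24 (adjusted p = 0.0388). Of the other 3 EBF1 probes 2 passed there, at -0.49 and -0.48, and 1 gave 0.01 (adjusted p = 0.968), and over the 24 pasture arrays alone EBF1 did not pass between breeds (adjusted p = 0.0834). With slide as a random block none of the 3 genes passed between breeds (adjusted p between 0.194 and 0.281), and with scan day as a block CEBPA alone did (adjusted p = 0.0344). Cell markers were also counted between the breeds in LD. Between Hereford and Angus 3 of 6 adipocyte markers were lower, with a median difference of -0.86, where 4.56% of all probes were lower. Skeletal muscle had 6 of 11 markers higher and endothelium 2 of 4, where 5.53% were higher. Between Wagyu x Angus and Hereford no adipocyte marker passed, with a median of 0.42. The part of these markers in the breed differences was not tested. Whether breed differences in LD and in fat differ from each other was not tested.

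The genes that these factors are known to act on were counted for IMF against SC, by lists drawn from textbook knowledge, with 1 probe per gene. Of 15 targets of PPARG and CEBPA 12 were lower in IMF and none higher, with a median difference of -1.33 against -0.004 over all probes. The lowest were CIDEA, a lipid droplet protein, by 2.52, and AGPAT2, an enzyme of triacylglycerol synthesis, by 1.89. The 6 adipocyte markers counted above are all among these 15 targets, so the counts share genes, here and between the diets in LD. Of 12 genes of lipogenesis 9 were lower and 2 higher, with a median of -1.69. ACSS2, which activates acetate, was lower by 2.89 and SCD, the fatty acid desaturase, by 2.45, while LPIN1 and PKLR were higher by 1.79 and 0.38. LPIN1 makes diacylglycerol and PKLR is a pyruvate kinase.

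The list set down as factors that hold back adipocyte formation went the other way in number. Of 8 such genes 5 were higher in IMF and 2 lower, with a median of 0.63. SFRP1 was higher by 2.2 and DLK1, the preadipocyte factor, by 1.2, whereas GATA3 and TCF7L2 were lower by 0.73 and 0.34. SFRP1 is a secreted inhibitor of Wnt signalling, and its place in this list is doubtful. Other factors that favour adipocyte formation were split, 4 higher and 4 lower of 10. KLF5 and STAT5B were higher by 2.82 and 1.77, and the liver X receptor NR1H3 and the glucocorticoid receptor NR3C1 were lower by 0.94 and 0.56.

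Among relatives of the 10 genes 1 of 10 was higher and 3 were lower. MLXIP, the relative of MLXIPL, was higher in IMF by 3.06, and PPARD and EBF3 were lower by 1.11 and 0.79. Among partners and regulators 2 of 9 were higher and 2 lower. PPARGC1A, a coactivator of PPARG, and RXRB were higher by 1.51 and 0.81, and SCAP, which escorts SREBF1 to the Golgi for activation, and RXRG were lower by 1.40 and 0.55. The 9 genes named in these lists as higher in IMF were also higher in LD on pasture than in SC, DLK1 by 3.54 and MLXIP by 4.90 in log2, and the muscle share of IMF was 27.8%. SFRP1 and KLF5 were higher in IMF than in LD as well, by 1.52 and 0.90. The part of muscle RNA in these differences was not tested. With 33% of all probes lower and 31.1% higher in this comparison, the 2 lists of targets had the largest shares of lower genes among the 6 lists.

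Against Omen the same lists gave 13 lower and 1 higher of 15 for targets of PPARG and CEBPA, and 9 lower and 1 higher of 12 for lipogenesis. Of all probes 28.5% were lower in IMF than in Omen and 27.8% higher. The list of factors set down as holding back adipocyte formation gave 3 higher and 2 lower of 8 there, with a median of 0.045. Between Kid and SC it gave 5 higher and 2 lower, with a median of 0.686, where 19.3% of all probes were higher and 22.4% lower. In LD with supplement, where 5.53% of all probes were lower, 6 of 15 targets were lower, CIDEC by 2.0 and ADIPOQ, which encodes adiponectin, by 1.63 the lowest. Of the lipogenic genes 3 of 12 were lower, SCD by 1.06 and ELOVL6, an elongase, by 1.05 the lowest. Other factors that favour adipocyte formation had KLF5 and BMP4 higher by 0.49 and 0.39 and STAT5A and KLF9 lower by 0.39 and 0.31, and no gene of the remaining 3 lists passed. With slide as a random block 1 of 34227 probes passed for diet, so that at most 1 of these list calls can stand.

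Over the 60 fat arrays CEBPA and PPARG ran together with a Pearson's r of 0.92, PPARG and THRSP with 0.79, CEBPA and MLXIPL with 0.78 and EBF1 and ZNF423 with 0.76. These values are descriptions: the arrays share depots and slides, and the IMF arrays share the muscle signal. The genes outside the set that were most like PPARG were PEMT (r = 0.94), DGAT2 and C8orf42, and those most like CEBPA were RTN3 (r = 0.95), ADIG and DGAT2. DGAT2 makes triacylglycerol and PEMT phosphatidylcholine. MLXIPL was most like BSG (r = 0.89), the fatty acid synthase gene FASN (r = 0.89) and IDH1, and THRSP most like C18H19orf12 (r = 0.87), SERPINA10 and C8orf42. EBF1 was most like SEMA3C (r = 0.89), CLTRN and SEPTIN10, and ZNF423 most like NFIB (r = 0.78), PRXL2C and NTRK2. CEBPD was most like the chemokine genes CXCL2 (r = 0.83) and GRO1, with VMP1 between them, and SREBF1 had the weakest likeness, LZTR1 (r = 0.68), LMAN2L and VPS53.

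Probes of one gene mostly ran together, though several calls given above did not hold on every probe. Over the 60 fat arrays the tested probes correlated at 0.992 for PPARG, 0.873 for CEBPA, 0.912 for SREBF1 and 0.985 to 0.998 for THRSP. For EBF1 they did so at 0.79 to 0.955 and for ZNF423 at 0.761 to 0.888. The tested probes correlated over the 96 arrays at 0.999 for PPARG, 0.92 for CEBPA, 0.89 for SREBF1, 0.98 to 0.99 for THRSP, 0.95 to 0.99 for EBF1 and 0.69 to 0.84 for ZNF423, and CEBPD and MLXIPL had 1 tested probe each. CEBPA had a further probe outside the tested ones that ran otherwise. It was lower in IMF than in SC by 0.41 (adjusted p = 0.00102) but higher in IMF than in Inter by 0.62, than in Kid by 0.34 and than in Omen by 0.38 (adjusted p = 0.00511), and it was lower in IMF than in LD by 0.54. The fold differences of CEBPA given here are those of its tested probes. The second CEBPB probe was higher in IMF than in SC by 0.47 (adjusted p = 0.00556), lower in SC than in LD by 0.72, and higher in Inter than in SC by 0.74, where the brighter probe was lower by 0.35.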

How the data were processed

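RNA from 96 samples was read on one colour Agilent arrays, 34227 of whose 43653 probes that are not controls were tested. The authors deposited, per the file headers, the intensity of each spot as the scanner software processed it, with background subtracted and no scaling between arrays. A second file that the authors deposited gives log2 values per probe and equals log2 of the median signal less local background, floored at 1, to within 8.32e-05. Its probes are the ones tested. The mixed model normalisation of the study is given by citation alone and was not repeated.

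Here log2 of the processed intensity less the 75th percentile of each array was used, outlier spots were left out and spots of a probe averaged, with no filter on dim probes. The tests were the moderated fits of limma 3.58.1 (eBayes on lmFit), run under R 4.3.3, with files read by its package data.table (version 1.17.8) and Benjamini-Hochberg adjustment over all probes tested and a threshold of 0.05. Diet was fitted with breed as a covariate, and breeds in fat with depot. A gene was represented by its tested probe with the highest mean over all 96 arrays. Probes were named by RefSeq accession (19903) or the study's probe tables (4446), together 21445 probes of 10653 genes. CEBPB was fitted over all probes that are not controls. Muscle share is the median, over probes more than 4-fold up in LD against SC, of how far an array's linear signal lies from the mean of SC toward that of LD on pasture.

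The single genes reported are the members, the 2 highest and 2 lowest genes past the threshold of each list, the 3 genes most correlated with each member over the 60 fat arrays, and PLIN1, an adipocyte marker named after its values were seen. The members and the lists were chosen with earlier results of these data known. Alternatives were quantile normalization, centring on the mean, normexp on the median signal with an offset of 50, the authors' log2 table, all probes, a filter on dim probes, other choices of probe, the methods' t-test, covariates, blocks for the replicate number, the scan day or the slide, and leaving out arrays. The methods were tested on simulated data.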

Additional observations from a re-analysis of the deposited data

Results flagged for a closer look

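Of 189 groups of 4 or 8 arrays examined, 7 had 1 array whose gap to its nearest neighbour was large for the range of the group, and chance flags about 1 in 20. CEBPA was at 5.95 on 1 IMF Angus array, with the next at 4.91. It was at 6.105 on the lowest Kid Angus array, with the next at 6.57, and at 6.7 on the highest Omen Wagyu x Angus array, with the next at 6.34. SREBF1 was at 0.199 on the highest IMF Wagyu x Angus array, with the next at -0.08, and at 0.61 on the highest LD Hereford supplement array, with the next at 0.08. THRSP was at -4.32 on the highest LD Hereford supplement array, with the next at -6.03, and was well above background on that array alone of the 4. MLXIPL was at -3.199 on the lowest LD Hereford pasture array, with the next at -2.71.

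The difference between supplement and pasture in LD depended on breed for 2 probes that do not represent their gene. For the dimmer CEBPB probe (adjusted p of the interaction 0.00778, limma) the mean went from -3.34 on pasture to -3.81 with supplement in Angus, from -3.66 to -2.92 in Hereford and from -3.33 to -3.04 in Wagyu x Angus. For 1 of the ZNF423 probes (adjusted p of the interaction 0.00988, limma) it went from -3.45 to -3.98 in Angus, from -3.58 to -2.98 in Hereford and from -3.21 to -3.06 in Wagyu x Angus. The probes that represent both genes did not pass this test (adjusted p = 0.469 for CEBPB and 0.519 for ZNF423, limma), and each supplement group lies on 1 slide, so that slide and the pair of breed and diet cannot be told apart.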

How the results depend on the processing

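Counts are of the 8 tested genes. Between IMF and SC 7 passed under each alternative other than scan day as a block, which gave 0 and turned ZNF423 to 0.146, and leaving out each array in turn gave 7 to 7. Between Omen and SC scan day as a block gave 0 in place of 4 and turned ZNF423 to 0.103, and scan day fitted over all 96 arrays turned CEBPD to -0.112. Between Inter and SC the 2 became 1 under centring on the mean, the authors' log2 table, the methods' t-test, slide as a random block, the replicate block, the spread of all 60 fat arrays, and without arrays of over 1% muscle share. Between Kid and SC the 2 became 1 under quantile normalization, the mean of all probes of a gene, slide as a random block and scan day as a block, and 5 under the replicate block. For diet in LD the 3 became 1 with the mean of all probes of a gene and 0 with slide as a random block, where 1 of 34227 probes passed in place of 3840, and leaving out each array gave 3 to 3. Its dependence on breed went from 0 to 1 with the mean of all probes of a gene and with scan day as a block. Breeds in LD went from 3 to 5 with normexp, 0 with slide as a random block (15 probes in place of 8640) and 1 with scan day as a block. The cause of these shifts was not tested.

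Over all probes, scan day as a block gave 6848 calls in place of 21958 for IMF against SC, 1513 in place of 15659 for Omen against SC, 1692 in place of 19127 for IMF against Kid, 2752 in place of 5278 for Inter against Kid, 480 in place of 4644 for Inter against Omen, 279 in place of 4134 for Kid against Omen, 2295 in place of 3840 for diet, 2961 in place of 5530 for its dependence on breed and 2078 in place of 8640 for breeds in LD. Fitted over all 96 arrays it gave 7177 for Inter against Omen and 7485 for Kid against Omen. Slide as a random block gave 1180, 2066 and 1817 for Inter against Kid, Inter against Omen and Kid against Omen, and 0 for the dependence of diet on breed. With normexp there were 21435 calls in place of 14261 for Kid against SC, 20011 for breeds in LD, 684 in place of 1091 for breeds in fat, 1123 for diet, 1143 for its dependence on breed and 4 in place of 0 for the dependence of depot on breed, for which all probes that are not controls gave 2. The methods' t-test gave 2400 for diet, no covariate 2461 and arrays of the same breed and scan day 2469. The spread of all 60 fat arrays gave 6256 for Kid against Omen, and LD on pasture alone 5034 for breeds. The mean of all probes of a gene tests fewer features and gave fewer calls in each comparison that had any. The replicate number is the place on the slide: deviations of arrays with the same number correlated with a median r of 0.011 over 896 pairs and those of other numbers -0.005 over 2704, so the number pairs no samples. Inter and SC share no scan day and could not be fitted with it as a block, and the summed count over the other depot pairs was not run with it. Of single values, 1952 kept their side of the threshold, 55 lost the call, 29 gained one and 3 that had passed reversed. Direction was followed only for values that had passed, and tests over several groups have none. The comparisons of arrays of the same breed and scan day, without arrays of many outlier spots, without arrays of over 1% muscle share and within LD on pasture, and the blocks for CEBPB, were chosen after seeing the data. On dim probes the signal over background limits what can be measured, as for THRSP in Hereford LD.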
